A study of Mus musculus with 15 samples.

Results

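The early response of osteoclast precursors to receptor activator of NF-kappaB ligand (RANKL) was read from RNA-seq of 6 libraries of mouse bone marrow-derived macrophages (BMDMs), 3 of cells given RANKL for 4 h and 3 of control cells, out of 15 libraries in 5 groups. The cells came from wild-type C57BL/6 mice and were grown in macrophage colony-stimulating factor (M-CSF), which the control cells received without RANKL. According to the methods of the study, M-CSF was given at 50 ng/mL and RANKL at 100 ng/mL. Neither the number of mice behind the libraries nor the time at which control cells were harvested is given in the sources used here. The other 9 libraries came from cells given RANKL for 3 days, or lipopolysaccharide (LPS, 100 ng/mL) for 4 h or for 3 days, and they enter below through the shared fit and through values set beside the early response.

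RANKL is the cytokine that turns macrophage precursors into bone-resorbing osteoclasts. It binds its receptor RANK, whose adaptor TRAF6 switches on NF-kappaB and MAP kinases, and over the following days these lead to the factor NFATc1 and to the enzymes and fusion proteins of the mature osteoclast. The same precursors express Toll-like receptors and respond to LPS with inflammatory and interferon-driven genes. A comparison at 4 h of RANKL shows which genes differed from control at that early time.

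Expression is given as FPKM, fragments scaled to transcript length and to library depth, and 11743 genes that averaged 0.1 FPKM or more over the 15 libraries were tested. A gene is called changed when its fold change was above 1.5 or below 0.66 and its unadjusted p was under 0.05 in limma over the 5 groups, the thresholds of the study. The replicates of each group differed from each other, and the same-numbered control and RANKL libraries deviated together from their group means. A second limma fit therefore compared each RANKL library with its own-numbered control in the 6 libraries, and a paired call needed the same folds and a Benjamini-Hochberg adjusted p under 0.05. The labels do not say whether replicates were separate animals or cultures, so the p-values measure the spread between these libraries, which may be technical.

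RANKL for 4 h changed 301 genes (2.56% of those tested), 142 higher (1.21%) and 159 lower (1.35%). Of these, 91 moved by more than a log2 fold change of 1, 55 of them upward. With the adjusted p over 5 groups, 14 genes passed (0.119%), 13 of them higher. The paired fit called 306 genes (2.61%), 137 higher (1.17%) and 169 lower (1.44%), and 230 genes were called in both fits. The median standard error of a log2 fold change was 0.21 over 5 groups and 0.09 over pairs. The median tested gene had a log2 fold change of 0.002.

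**Figure D1:**
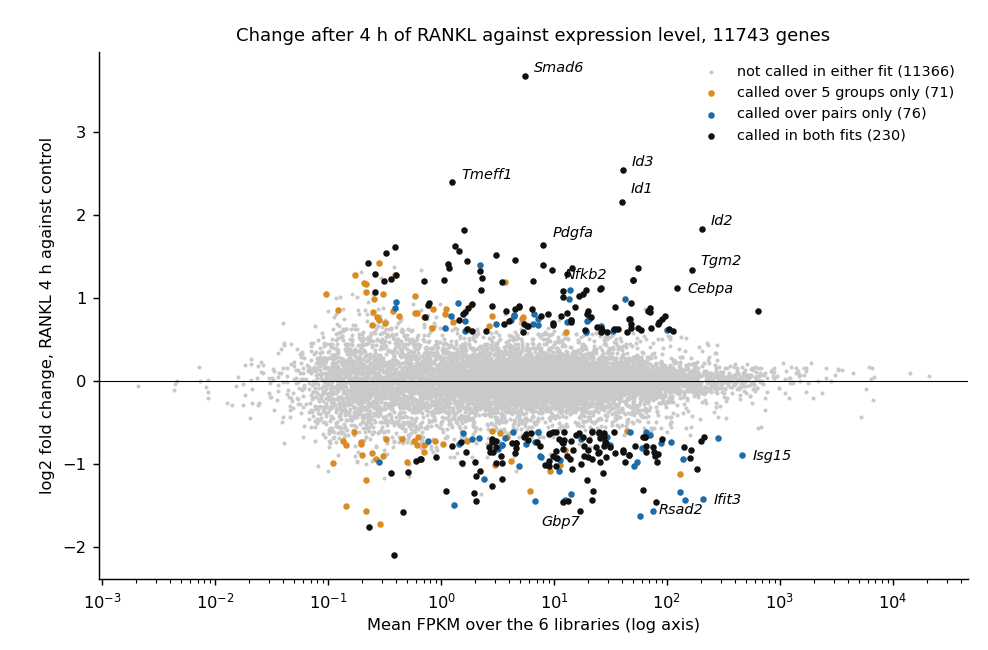
Log2 fold change in RANKL 4 h against control (vertical axis) against the mean FPKM of each gene over the 6 libraries (horizontal axis, log scale), for 11743 genes. Grey points were not called, black points were called in both fits, orange points only over 5 groups (71 genes) and blue points only over pairs (76 genes). *Smad6* and the *Id* genes stand at the top, and genes of the interferon response lie among the falls at high expression.

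The largest rise was that of *Smad6*, which encodes an inhibitory SMAD that restrains signalling by bone morphogenetic protein (BMP) receptors. Its level was 1.29, 0.501 and 0.533 FPKM in control replicates 1, 2 and 3, and 10.9, 10.4 and 9.4 FPKM in the RANKL replicates. Every RANKL library stood above every control library, by a log2 fold change of 3.67 ± 0.37 (SE, n = 3 against 3, limma adjusted p = 0.00145). Of all tested genes, 10.8% did not overlap between the groups, 6.05% with RANKL higher and 4.71% with RANKL lower, so that a lack of overlap alone was common. *Smad7*, the inhibitory SMAD that acts mainly on the transforming growth factor-beta (TGF-beta) receptor, was at 2.08, 1.08 and 1.54 FPKM in control and at 4.48, 4.13 and 4.89 FPKM after RANKL. The groups did not overlap, and the log2 fold change was 1.51 ± 0.26 (limma adjusted p = 0.0449). *Smad6* lies on chromosome 9 from 63953076 to 64022059 (minus strand, GENCODE M21 on GRCm38).

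The *Id* genes encode proteins that bind basic helix-loop-helix factors and keep them from DNA, and in many cells they are direct targets of BMP signalling. *Id3* was at 20, 12.8 and 6.03 FPKM in control replicates 1, 2 and 3 and at 81.3, 70.7 and 54.1 FPKM in the RANKL replicates. *Id1* was at 26.1, 9.22 and 10.6 FPKM in control and at 86.9, 64.9 and 40.4 FPKM after RANKL. *Id2*, the most abundant of these, was at 133, 63.1 and 79.4 FPKM in control and at 362, 259 and 322 FPKM after RANKL. None of the 3 genes overlapped between the groups, as was the case in the same direction for 6.05% of tested genes, although the controls of each spread widely. The log2 fold changes were 2.54 ± 0.32 for *Id3* (limma adjusted p = 0.00886), 2.15 ± 0.49 for *Id1* (adjusted p = 0.165) and 1.83 ± 0.35 for *Id2* (adjusted p = 0.086). Compared within pairs, *Id1* and *Id2* passed as well, with paired adjusted p-values of 0.00683 and 0.00667 in limma.

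Of 31 tested genes of the SMAD, TGF-beta and BMP pathway, 8 were changed, all higher (25.8%, beside 2.56% of all tested genes). The paired fit called the same count in the same direction (25.8%, beside 2.61%). *Skil*, a corepressor that holds SMAD complexes in check, was at 9.56, 7.26 and 7.31 FPKM in control and at 17.7, 21.8 and 22.7 FPKM after RANKL. This was a log2 fold change of 1.36 ± 0.24 (limma adjusted p = 0.0451). *Tgfbr1*, the type I TGF-beta receptor, went from 11.9, 14.1 and 17.3 FPKM to 22.5, 27.2 and 27.6 FPKM (0.84 ± 0.23). *Pmepa1*, a membrane protein that traps receptor SMADs, went from 2.45, 0.968 and 0.892 FPKM to 4.65, 2.06 and 2.46 FPKM. The *Pmepa1* groups overlapped, yet each RANKL library stood above its own control, by 0.90, 1.02 and 1.37 on the log2 scale.

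Other genes of the signalling chain had smaller log2 fold changes than *Tgfbr1*. *Acvr1*, a type I BMP receptor, was 0.39 ± 0.15 higher, under the fold threshold, and higher in 3 of 3 pairs (paired adjusted p = 0.0627 in limma). *Smad1*, which BMP receptors phosphorylate, had a log2 fold change of 0.09 ± 0.12, *Smad4*, the shared partner, 0.07 ± 0.13, and *Bmpr2*, a type II BMP receptor, 0.04 ± 0.23. *Tgfb1*, the most studied ligand of the family, was at 130, 145 and 133 FPKM in control and at 139, 147 and 137 FPKM after RANKL. None of these 5 was changed in either fit. Over the list, the median log2 fold change was 0.32 beside 0.002 for all tested genes, and it was 0.29, 0.28 and 0.29 in pairs 1, 2 and 3. The number of higher genes was 8 or 9 whichever library or pair was left out. *Smad9*, the remaining member, did not pass the filter on low values.

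**Figure D2:**
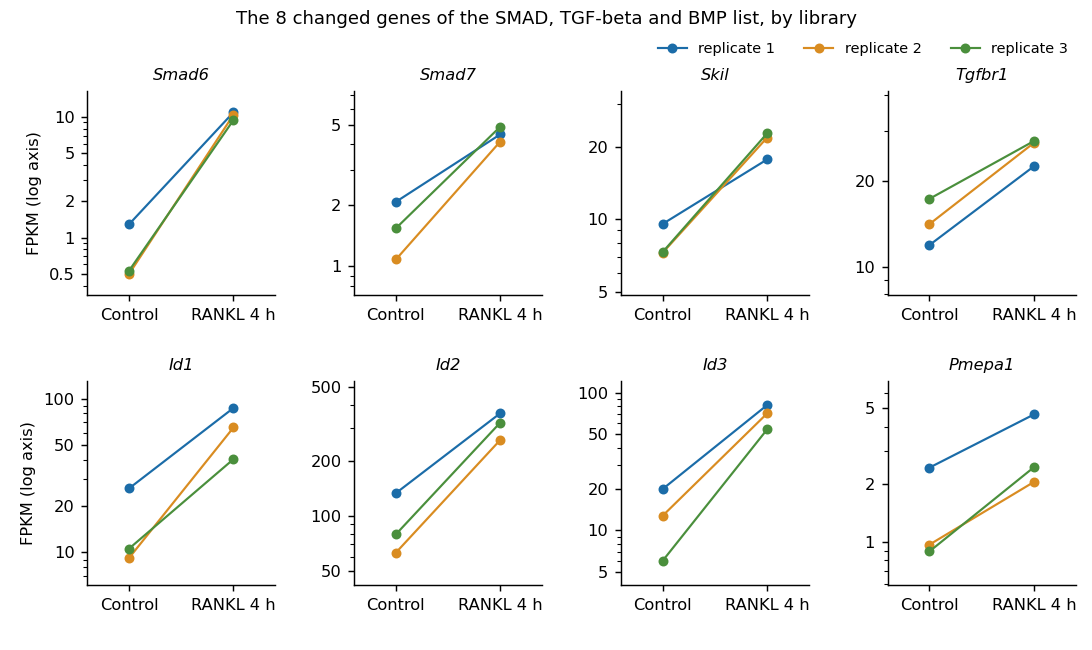
FPKM (vertical axes, log scale) of the 8 changed genes of the SMAD, TGF-beta and BMP list in each control and RANKL 4 h library, with a line joining libraries of the same replicate number. Every line rises, and only *Pmepa1* overlaps between the groups.

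Growth factor genes were among the other large rises. *Pdgfa*, a chain of platelet-derived growth factor, was at 3.48, 3.63 and 4.49 FPKM in control and at 11.5, 11.8 and 13.4 FPKM after RANKL. Its 3 pair differences were 1.69, 1.68 and 1.55, the lowest paired p among the rises along with a log2 fold change of 1.64 ± 0.25 over 5 groups (limma adjusted p = 0.0302, paired 0.00528). *Pdgfb*, the second chain, went from 1.27, 0.709 and 0.677 FPKM to 2.37, 2.84 and 2.26 FPKM (1.44 ± 0.27, limma adjusted p = 0.069, paired 0.0183). Both chains stood higher in every RANKL library than in any control, as did 6.05% of tested genes.

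The remaining genes that passed the adjusted p over 5 groups had varied functions. *Tmeff1*, a transmembrane protein with follistatin-like modules, had the largest of these log2 fold changes, 2.39 ± 0.41, on a low base of 8 to 26 fragments per control library and 84 to 140 per RANKL library. *Ppp1r12b*, a regulatory subunit of myosin phosphatase, rose by 1.46 ± 0.19, and *Enc1*, an actin-binding Kelch protein, by 1.39 ± 0.21. *Tgm2*, a transglutaminase, went from 123, 79.8 and 81.4 FPKM to 208, 236 and 261 FPKM (1.33 ± 0.22). *Itga5*, the alpha chain of the fibronectin receptor, rose by 0.94 ± 0.15, the ubiquitin ligase gene *Rnf149* by 0.84 ± 0.14 and *Sephs2*, which makes the selenium donor for selenoproteins, by 0.75 ± 0.10. The limma adjusted p-values of these 7 genes lay between 0.0121 and 0.0449. All 14 genes kept their unadjusted call whichever single library was left out, and their paired call whichever pair was left out. The count passing the adjusted p was less steady, at 15 without control replicate 1, 3 without control replicate 2, 2 without control replicate 3, and 6, 1 and 2 without RANKL replicates 1, 2 and 3.

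The other large rises were *Spsb1*, a SOCS-box adaptor (log2 fold change 1.81 ± 0.32), *Pald1*, which encodes paladin (1.62 ± 0.35), and *Bdh2*, a short-chain dehydrogenase (1.56 ± 0.40). Their limma adjusted p-values over 5 groups were 0.051, 0.134 and 0.264, and their paired ones 0.00937, 0.0134 and 0.0387. *Bdh2* rested on 10 to 35 fragments per control library and kept its paired call only without replicate 1. Among the 10 rises with the lowest paired p were also *Mef2a*, a MADS-box factor that went from 19.8, 26.2 and 26.5 FPKM to 33.3, 50.3 and 52.8 FPKM, and the predicted gene *Gm42031*, with pair differences of 0.88, 1.22 and 1.18. The paired adjusted p was 0.00667 in limma for both.

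Among the NF-kappaB genes, the largest log2 fold changes were in the noncanonical arm. *Nfkb2* encodes p100, the precursor of the p52 subunit, and was at 14.8, 11.3 and 9.0 FPKM in control and at 23.1, 28.4 and 20.8 FPKM after RANKL. *Relb*, the partner of p52, was at 8.07, 4.82 and 3.69 FPKM in control and at 16.9, 15.1 and 9.24 FPKM after RANKL. Neither overlapped between the groups, beside 6.05% of tested genes that separated in this direction, and the log2 fold changes were 1.05 ± 0.18 (limma adjusted p = 0.0449) and 1.33 ± 0.27 (adjusted p = 0.112, paired 0.00683). *Nfkbia*, the inhibitor that ends canonical signalling, went from 54.0, 35.6 and 40.6 FPKM to 74.7, 65.6 and 60.5 FPKM (0.64 ± 0.21). *Tnip3*, an inhibitor that works with the ubiquitin-editing protein A20, rose by 0.89 ± 0.37, and *Tnf*, a classic target, by 0.65 ± 0.24.

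Subunit genes of the canonical arm were not called. *Nfkb1*, which encodes p105, had a log2 fold change of 0.13 ± 0.11, and *Rel* -0.20 ± 0.28. The A20 gene *Tnfaip3* (0.58 ± 0.17) and the coactivator gene *Bcl3* (0.57 ± 0.16) lay just under the fold threshold, with paired adjusted p-values of 0.0224 and 0.0134. *Map3k8*, the kinase that p105 holds inactive, was the 1 member that fell, from 6.56, 6.79 and 6.49 FPKM to 3.75, 3.89 and 4.75 FPKM (-0.68 ± 0.20). Of 23 list members, 5 were thus higher and 1 lower in each fit, with a median log2 fold change of 0.32. Called members were 26.1% of the list, beside 2.56% of all tested genes over 5 groups and 2.61% in the paired fit. Left-out pairs moved the paired number of higher genes to 7, 3 and 5 without replicates 1, 2 and 3, and *Map3k8* lost its paired call without replicate 1 and without replicate 2. *Nfkb2* lies on chromosome 19 from 46304320 to 46312385 (plus strand) and *Relb* on chromosome 7 from 19606217 to 19629438 (minus strand).

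Receptors of the Toll-like family moved in both directions. *Tlr2*, the receptor for bacterial lipopeptides, was at 20.5, 13.9 and 14.4 FPKM in control and at 43.0, 39.9 and 24.8 FPKM after RANKL, with no overlap (1.12 ± 0.24, limma adjusted p = 0.134, paired 0.0111). *Tlr4*, the receptor for LPS, was at 18.0, 22.9 and 19.8 FPKM in control and at 13.4, 15.1 and 10.8 FPKM after RANKL, also with no overlap (-0.63 ± 0.14, limma adjusted p = 0.165, paired 0.0198). *Tlr3* and *Tlr8*, the endosomal receptors for double-stranded and single-stranded RNA, fell by 0.87 and 0.61 on the log2 scale. *Irak2*, a kinase downstream of these receptors, rose by 0.61 ± 0.17. Of 17 members tested, 2 were higher and 3 lower in each fit (29.4%, beside 2.56% of all tested genes over 5 groups and 2.61% paired). *Tlr4* kept its paired call in 1 of the 3 fits without a pair.

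A few transcription factors of the myeloid lineage changed. *Cebpa*, a pioneer factor of myeloid cells, was at 72.8, 82.5 and 75.4 FPKM in control and at 150, 173 and 181 FPKM after RANKL. Its pair differences of 1.04, 1.07 and 1.26 gave a paired adjusted p of 0.00667, against an adjusted p of 0.249 over the 5 groups in limma. *Maf*, a basic leucine zipper factor, fell in each pair, by 0.64, 0.58 and 0.83, from 75.5, 98.9 and 61.6 FPKM to 48.5, 66.0 and 34.7 FPKM.

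*Irf8* and *Bcl6*, known repressors of osteoclast formation on the same list, stayed under the fold threshold. *Irf8* had a log2 fold change of -0.12 ± 0.18, *Bcl6* 0.56 ± 0.17 (paired adjusted p = 0.0198) and *Prdm1*, which silences such repressors, 0.30 ± 0.28. *Spi1*, which encodes the lineage factor PU.1, was 0.36 ± 0.12 higher (paired adjusted p = 0.0195). *Bhlhe40*, a repressor with ties to the circadian clock, was called in the paired fit only (0.72, paired adjusted p = 0.0195). Of 20 members of this list, 2 were higher and 1 lower over 5 groups, beside 2.56% of all tested genes called in either direction. In the paired fit 3 of the 20 were higher and 1 lower, beside 2.61% of all tested genes.

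Genes of the osteoclast program itself were not called at 4 h. Of 17 listed osteoclast genes, 0 were changed over 5 groups in limma, and 0 passed the paired fit. At an unadjusted p under 0.05 there were 0 over 5 groups and 2 in the paired fit, and 0 were changed with voom on recovered fragments. *Calcr*, the calcitonin receptor gene, was at 0 FPKM in all 6 libraries and could not be called at 4 h. It counts as tested only because the filter averaged all 15 libraries. *Nfatc1*, the master factor, was at 6.24, 7.67 and 9.31 FPKM in control and at 6.35, 7.78 and 7.63 FPKM after RANKL (-0.08 ± 0.26). *Ctsk*, the collagen-degrading protease, was at 32.9, 15.5 and 23.5 FPKM in control and at 35, 15.9 and 23.7 FPKM after RANKL (0.05 ± 0.53). *Acp5*, tartrate-resistant acid phosphatase, had a log2 fold change of 0.07 ± 0.43. The spread of *Ctsk* and *Acp5* between replicates was wider than the fold threshold, and a change of that size was not detectable for them over 5 groups. At 3 days of RANKL the median of the same list was 3.97 against the same controls.

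Of 24 AP-1 and immediate-early genes, 2 were higher and 1 lower over 5 groups (12.5%, beside 2.56% of all tested genes), and 1 was higher and 1 lower in the paired fit (8.33%, beside 2.61%). The median log2 fold change of the list was 0.03. *Fos*, which RANKL signalling requires, was at 27.3, 33.6 and 36.0 FPKM in control and at 30.4, 50.7 and 58.1 FPKM after RANKL (0.48 ± 0.28, paired adjusted p = 0.069). *Junb* rose by 0.61 ± 0.17 and *Maff* by 0.91 ± 0.33, and *Ier3*, an early survival gene, fell by 0.79. *Maff* lost its call in the paired fit (adjusted p = 0.0923). *Egr1* (-0.05 ± 0.29) and *Jun* (0.04 ± 0.16) were near control. Of the calcineurin and NFAT genes, *Rcan1*, a feedback inhibitor that NFAT itself induces, was the 1 member called of 20 (5.0%). *Rcan1* rose evenly from 11.6, 10.4 and 10.6 FPKM to 21.3, 21 and 24.2 FPKM (1.02 ± 0.24, paired adjusted p = 0.00667). The MAP kinase phosphatase genes *Dusp1* (0.61 ± 0.20) and, in the paired fit only, *Dusp4* (0.98, paired adjusted p = 0.00667) were higher. *Dusp4* illustrates the spread between replicates, at 3.63, 6.84 and 17.3 FPKM in control and at 7.95, 12.9 and 33.1 FPKM after RANKL.

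The receptors for both cytokines were measured too. *Tnfrsf11a*, which encodes RANK, was at 14.7, 18.2 and 16.7 FPKM in control and at 13.8, 18.5 and 14.3 FPKM after RANKL (-0.10 ± 0.17). *Csf1r*, the M-CSF receptor, was 0.43 ± 0.14 higher, under the fold threshold, with a paired adjusted p of 0.0189. *Sqstm1*, which encodes the RANK-pathway scaffold and autophagy receptor p62, was the 1 gene called of 21 (4.76%, beside 2.56% of all tested genes). It went from 357, 473 and 551 FPKM to 702, 767 and 989 FPKM, by 0.98, 0.70 and 0.84 within pairs.

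Interferon-stimulated genes stood lower after RANKL, most clearly within pairs. These genes encode antiviral proteins that macrophages make at a basal level under their own type I interferon, through a complex containing STAT2 and IRF9 that binds the interferon-stimulated response element. The 26 listed genes summed to 7960, 5180 and 2890 FPKM in control replicates 1, 2 and 3 and to 6100, 3880 and 2110 FPKM in the RANKL replicates. All 26 were highest in replicate 1 and lowest in replicate 3 in both groups, and the highest control exceeded the lowest by a median of 2.41-fold and at most 7.43-fold. For the SMAD list that median was 1.32-fold.

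Over 5 groups, 5 of the 26 were changed, all lower (19.2%, beside 2.56% of all tested genes). In the paired fit 14 were lower and 0 higher (53.8%, beside 2.61%). The median log2 fold change was -0.79, and within pairs it was -0.63, -0.67 and -1.02 for replicates 1, 2 and 3. Lower in all 3 pairs were 25 of the 26, against 22.3% of all tested genes. Leaving out a pair gave 18, 14 and 14 paired calls without replicates 1, 2 and 3. Over 5 groups the number depended on single libraries, since it was 1, 3 and 19 without control replicates 1, 2 and 3 and 20, 3 and 0 without RANKL replicates 1, 2 and 3.

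*Isg15*, a ubiquitin-like protein, was at 1040, 488 and 213 FPKM in control and at 668, 257 and 98.6 FPKM after RANKL. *Ifit3*, which helps block viral RNA translation, was at 516, 247 and 91.7 FPKM in control and at 273, 90.5 and 24.4 FPKM after RANKL. *Rsad2*, which encodes the antiviral enzyme viperin, was at 333, 139 and 64.5 FPKM in control and at 170, 51.5 and 20.7 FPKM after RANKL. The groups overlapped for each of these, while every RANKL library stood below its own control, by 0.64, 0.92 and 1.11 on the log2 scale for *Isg15*. Their limma adjusted p-values were 0.00781, 0.011 and 0.00683 in the paired fit and 1.0 each over 5 groups.

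Sensors and signal transducers of the same response moved likewise. *Stat2* was at 125, 116 and 74.2 FPKM in control and at 81.5, 68.1 and 31.3 FPKM after RANKL (-0.88 ± 0.30). *Ddx58* and *Ifih1*, which encode the viral RNA sensors RIG-I and MDA5, fell by 0.89 and 0.87 on the log2 scale. *Trim25*, the ubiquitin ligase that activates RIG-I, was the 1 lower gene to pass the adjusted p over 5 groups. It went from 74.6, 83.2 and 70.1 FPKM to 46.5, 50.9 and 44.9 FPKM, with no overlap (-0.68 ± 0.11, limma adjusted p = 0.0305, paired 0.00667). *Irf7* (-0.09 ± 0.29) and *Bst2* (0.04 ± 0.36), also interferon targets, had smaller log2 fold changes and were not called, so the list did not move as 1 block. *Ifit3* and its neighbour *Ifit3b* are near-identical copies whose fragments may have been divided between them.

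Of the 10 falls with the lowest paired p, 3 were members of the interferon list, *Oasl1*, *Ifi44* and *Gbp5*. *Iigp1*, an interferon-inducible GTPase, went from 52.9, 31.5 and 9.30 FPKM to 20.5, 12.1 and 3.09 FPKM, a difference of -1.36, -1.37 and -1.56 within pairs (paired adjusted p = 0.00528 in limma). *Oasl1*, *Ifi44*, *Herc6* and *Gbp5* fell in the paired fit by 0.93, 0.81, 0.91 and 1.09 on the log2 scale. *Daxx*, a chromatin-associated protein, fell by 0.86. Other genes with the lowest paired p were *Slc40a1*, the iron exporter ferroportin, which went from 162, 258 and 203 FPKM to 98.5, 148 and 104 FPKM, the endocytic adaptor *Dab2* (-0.75, paired fit only) and *Frmd4b* (-0.78), a scaffold protein.

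**Figure D3:**
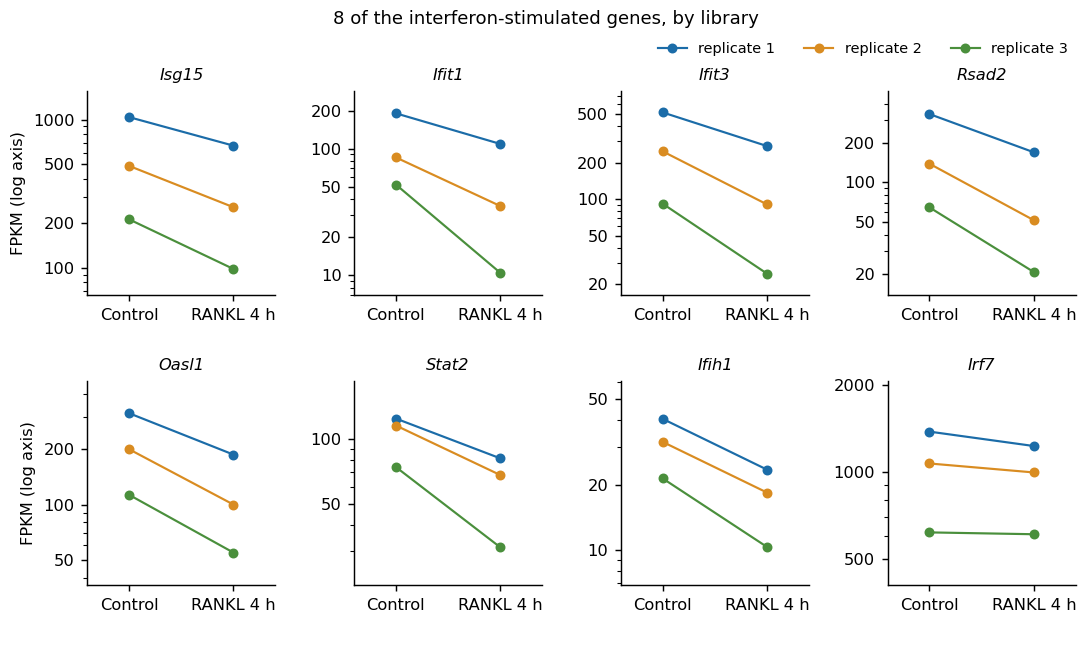
FPKM (vertical axes, log scale) of 8 interferon-stimulated genes in each control and RANKL 4 h library, with lines joining libraries of the same replicate number. The replicates keep their order from control to RANKL, every line slopes down, and the slope is shallow for *Irf7*, which was not called.

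The interferon list held 14 of the 169 paired falls and 5 of the 159 falls over 5 groups, and promoters were searched for the element named above. The 250 bases before the start of each gene were read from RefSeq on GRCm38.p6, 5′ to 3′ on the strand of the gene, and searched on both strands. The interferon-stimulated response element, searched as GAAA, any 2 bases and GAAA again, was present in 2.98% of 32851 promoters and at any start of 317 of 8973 tested genes with a promoter in the table (3.53%). It was present in 31 of 116 matched genes lower in the paired fit (26.7%) and in 3 of 98 higher ones (3.06%). Over 5 groups the lower genes held it in 21 of 109 (19.3%). Of 22 promoters of the interferon list, 12 held it. The promoters of *Isg15* at chr4:156200819-156201068 (minus strand), *Ifit3* at chr19:34583279-34583528 (plus strand), *Rsad2* at chr12:26456453-26456702 (minus strand) and *Gbp7* at chr3:142530086-142530335 (plus strand) are shown because they carry the element before genes that fell, with its matches on either strand in capitals.
Isg15: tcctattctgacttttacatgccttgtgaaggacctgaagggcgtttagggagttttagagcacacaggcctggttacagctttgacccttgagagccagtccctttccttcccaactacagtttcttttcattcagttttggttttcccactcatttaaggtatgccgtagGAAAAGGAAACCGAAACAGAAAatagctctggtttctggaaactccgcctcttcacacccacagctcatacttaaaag
Ifit3: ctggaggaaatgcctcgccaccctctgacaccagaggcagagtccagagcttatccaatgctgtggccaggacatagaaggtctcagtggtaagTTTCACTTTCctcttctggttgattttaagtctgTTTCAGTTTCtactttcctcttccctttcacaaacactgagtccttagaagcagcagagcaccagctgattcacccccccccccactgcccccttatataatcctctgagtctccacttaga
Rsad2: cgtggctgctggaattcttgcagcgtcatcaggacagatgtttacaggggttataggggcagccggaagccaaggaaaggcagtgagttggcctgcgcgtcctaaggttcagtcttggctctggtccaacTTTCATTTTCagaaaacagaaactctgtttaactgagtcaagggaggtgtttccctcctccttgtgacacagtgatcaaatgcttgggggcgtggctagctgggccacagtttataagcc
Gbp7: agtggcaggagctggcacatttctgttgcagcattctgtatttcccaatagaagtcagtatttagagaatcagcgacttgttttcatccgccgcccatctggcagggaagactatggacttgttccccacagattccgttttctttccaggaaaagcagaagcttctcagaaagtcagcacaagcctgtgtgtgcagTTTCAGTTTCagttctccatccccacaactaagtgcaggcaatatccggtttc
In *Isg15* 3 overlapping matches form 1 run, whose nearest end lies 56 bases from the start, and in *Ifit3* the nearer of 2 matches lies 112 bases away. The single matches in *Rsad2* and *Gbp7* lie 110 and 43 bases from the start.

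The related gamma-activated site was searched as TTC, any 3 bases and GAA. It was in 9.18% of the promoters of paired rises, 19.0% of those of paired falls, 7.12% of tested genes and 7.02% of all promoters. An NF-kappaB motif was in 10.2% of the promoters of paired rises, 12.1% of those of paired falls, 10.8% of tested genes and 7.25% of all promoters. The AP-1 motif TGANTCA was in 9.18% of rises, 11.2% of falls, 5.97% of tested genes and 6.75% of all promoters. GGCGCC, a core bound by BMP-activated SMADs, was in 26.5% of rises, 9.48% of falls, 19.0% of tested genes and 9.59% of all promoters. These motifs can overlap each other, and a match is a run of letters and not a measured binding site.

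The 12 largest falls among genes that averaged 1 FPKM or more and did not overlap between groups reached -1.46. *Gbp7*, a guanylate-binding protein induced by interferon, was at 25.1, 14.6 and 12.4 FPKM in control and at 10.5, 6.45 and 3.07 FPKM after RANKL (-1.46 ± 0.36, limma adjusted p = 0.246, paired 0.00891). *Gvin1*, a very large inducible GTPase, and the predicted genes *Gm4070* and *Gm1966* fell by 1.26, 1.14 and 1.01, with the division of fragments between such related copies uncertain. *Lipg*, endothelial lipase, went from 4.45, 2.92 and 1.88 FPKM to 1.23, 1.01 and 0.804 FPKM (-1.45 ± 0.58). *Adm*, the vasodilator peptide adrenomedullin, fell by 1.32 ± 0.33 on 29 to 58 fragments per control library and 13 to 19 after RANKL.

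Of the remaining 6, *Hsh2d*, an SH2-domain adaptor of blood cells, was at 9.99, 6.13 and 9.67 FPKM in control and at 6.05, 3.30 and 1.73 FPKM after RANKL. Its fall of 1.33 on the log2 scale drew most on pair 3, where it was -2.41, and it lost its call in the paired fit (adjusted p = 0.0804), as did *Gm1966* (0.053). *Rhobtb1*, a BTB-domain GTPase, fell by 1.08, *Eps8*, an actin-capping protein, by 1.06, *Cysltr1*, a leukotriene receptor, by 1.03, *Ccnd2*, cyclin D2, by 1.02 and *P2ry13*, an ADP receptor, by 1.01. Of the 12 falls, 7 kept their call over 5 groups without RANKL replicate 3, 9 without control replicate 1 and 10 to 12 without any other library. In the paired fit 10 of the 12 were called, and 6, 11 and 12 without replicates 1, 2 and 3. All of the 12 largest rises kept their call over 5 groups under each of these omissions.

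Chemokine genes moved in both directions. *Ccl3* was at 174, 234 and 132 FPKM in control and at 112, 122 and 76.1 FPKM after RANKL (-0.79 ± 0.26, paired adjusted p = 0.00683). *Ccl7* and *Ccl12*, both attractants of monocytes, were lower in the paired fit only (-0.69 and -0.94, paired adjusted p = 0.0235 and 0.00919). *Ccl2*, at 858, 948 and 619 FPKM in control and 509, 568 and 545 FPKM after RANKL, did not pass (paired adjusted p = 0.059). *Cxcl16* rose from 76.6, 49.8 and 29.8 FPKM to 111, 87.5 and 66.7 FPKM (0.83 ± 0.30), and *Cxcl14* was higher in the paired fit only (0.78). Of 23 chemokines, 1 was higher and 1 lower over 5 groups (8.7%, beside 2.56% of all tested genes). In the paired fit 2 were higher and 3 lower (21.7%, beside 2.61%).

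Among chemokine receptors, *Cx3cr1*, the fractalkine receptor of monocytes and osteoclast precursors, rose from 1.71, 2.40 and 2.05 FPKM to 3.63, 5.59 and 5.37 FPKM (1.19 ± 0.27, paired adjusted p = 0.00683). *Ccr1*, a receptor for *Ccl3* and related chemokines, fell by 0.78 ± 0.33. Among cytokines, *Il15*, a growth factor for natural killer cells and an interferon target, went from 18.5, 10.5 and 7.13 FPKM to 9.75, 4.99 and 3.74 FPKM, by 0.92, 1.06 and 0.91 lower within pairs. *Tnfsf14* fell as well (-0.85 ± 0.35), and *Tnfsf9* was lower in the paired fit only (-0.69). *Il1b* (-0.47 ± 0.48) and *Il6* (0.14 ± 0.50) were not called.

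Some genes that LPS induces strongly moved as well. Of 18 LPS-response genes, *Gpr84*, a receptor for medium-chain fatty acids, was changed over 5 groups, at 5.61, 3.40 and 3.09 FPKM in control and 9.29, 9.41 and 8.57 FPKM after RANKL (1.2 ± 0.30, paired adjusted p = 0.0134). *Acod1*, which makes itaconate, and the cystine transporter gene *Slc7a11* were higher in the paired fit only (0.98 and 0.68), and *Socs1*, a brake on interferon signalling, and *Cd69* were lower there (-0.95 and -0.77). Called members were 5.56% of the list over 5 groups and 27.8% in the paired fit, beside 2.56% and 2.61% of all tested genes. The median of the list was 0.07.

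Other lists held few calls or none. Of 29 cell cycle genes *Ccnd2* alone was called (3.45%, beside 2.56% of all tested genes). Of 16 glycolysis and hypoxia genes *Adm* and *Ankrd37* were called, both lower (12.5%). *Ankrd37* fell from 1.24, 0.475 and 0.533 FPKM to 0.207, 0.234 and 0.079 FPKM. In the integrated stress response list, 0 of 18 were changed in limma (0 at an unadjusted p under 0.05, 2 changed with voom), and *Asns* and *Slc7a11* were called in the paired fit. The lists of MHC class II genes (10), unfolded protein and heat shock genes (14), cholesterol genes (22) and Hippo genes (17) held 0 changed genes in limma over 5 groups, with 0, 3, 6 and 1 members at an unadjusted p under 0.05, and 0 in the paired fit, with 1, 7, 12 and 1 at that p. Of 15 circadian clock genes 0 were changed in limma or with voom (0 at an unadjusted p under 0.05), and *Bhlhe40* was called in the paired fit. Voom called 0 members of these lists. Cholesterol genes leaned upward, with a median of 0.25 and 13 of 22 higher in all 3 pairs against 21.8% of all tested genes, and heat shock genes leaned downward (median -0.28), without passing the fold threshold.

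**Figure D4:**
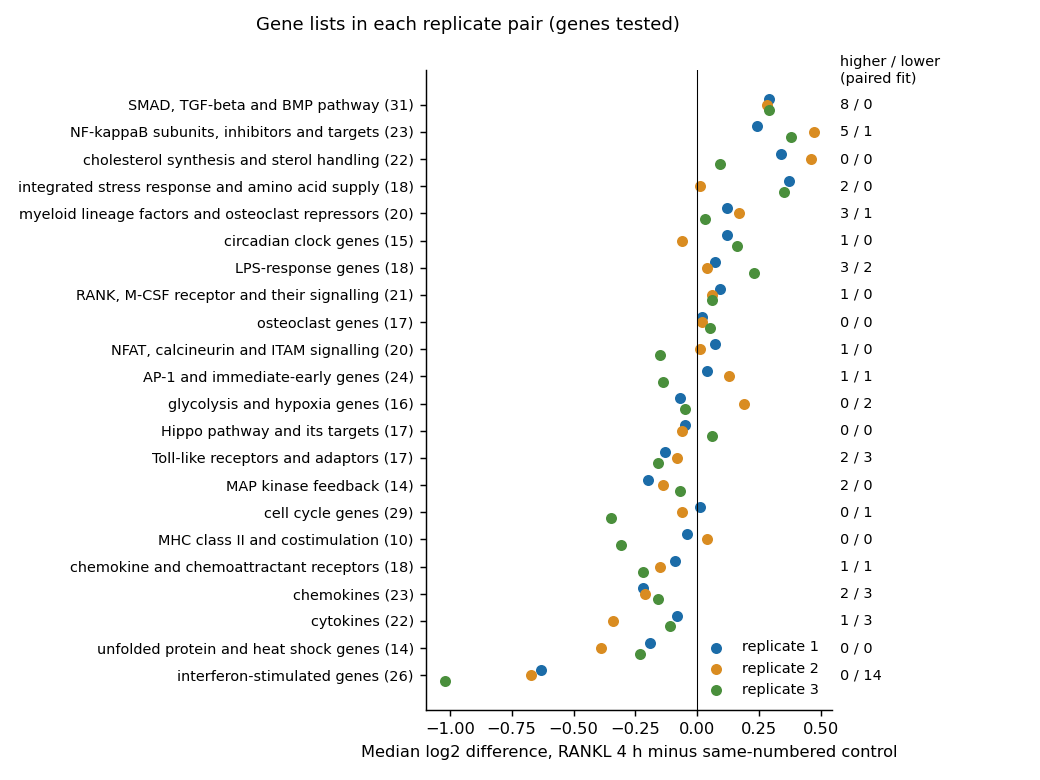
Median log2 difference between each RANKL 4 h library and its same-numbered control (horizontal axis) for 22 gene lists, with the number of tested members in brackets and paired calls in each direction at the right. The SMAD list lies at 0.29, 0.28 and 0.29 in the 3 pairs, and the interferon list lies lowest in all 3.

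Cells of other types could be present in BMDM cultures. The 10 macrophage markers summed to 9350, 9230 and 7670 FPKM in control and 8810, 9020 and 7580 FPKM after RANKL, and 0 of the 10 changed in limma (2 at an unadjusted p under 0.05, 0 changed with voom). Neutrophil and granulocyte precursor markers (11 genes) summed to 24400, 7920 and 21600 FPKM in control and 21800, 7520 and 14200 FPKM after RANKL, above the macrophage sums in replicates 1 and 3 of both groups. Markers of B cells (6 genes) summed to 21.3, 21.3 and 16.6 FPKM and then to 17.7, 17.2 and 5.44 FPKM, and those of dendritic cells (5 genes) to 18.7, 12.5 and 4.98 FPKM and then to 17.3, 12.3 and 1.64 FPKM. Those of basophils and mast cells (7 genes) summed to 71.8, 27.6 and 28 FPKM in control and to 58.0, 23.0 and 16.7 FPKM after RANKL. These 4 sums were thus lower after RANKL in all 3 pairs, as were those of the macrophage and the endothelial markers. The stromal sum was higher in all 3 pairs. The T and NK cell, erythroid and megakaryocyte sums moved in both directions. The 6 B cell markers were each lower in 3 of 3 pairs, with a median log2 fold change of -0.75, and none was called in the paired fit. *Pax5*, the B cell factor, was called lower over 5 groups (-0.89) but not in the paired fit, and the haemoglobin gene *Hbb-bt* was called lower in both (-1.76), at 0 to 0.521 FPKM. No marker list had all of its defining genes at 0, and none of the stromal (14), T and NK cell (8), endothelial (4) or megakaryocyte (4) markers was called in either fit. The part of these cells in the falls after RANKL was not tested. In such bulk libraries, fewer cells of a type and less RNA per cell cannot be told apart.

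The early response was also set beside the other stimuli, all of which were compared with the same 3 control libraries. *Smad6* averaged 10.2 ± 0.747 FPKM after 4 h of RANKL (SD, n = 3), 1.14 ± 0.0987 after 4 h of LPS and 1.32 ± 0.508 after 3 days of RANKL, against 0.774 ± 0.446 in control. *Id1* averaged 64.1 ± 23.2 FPKM after 4 h of RANKL, 21.4 ± 8.99 after 4 h of LPS and 3.19 ± 1.02 after 3 days of RANKL. *Smad7* averaged 4.5, 1.64 and 2.05 FPKM in the same order. These genes were thus highest at 4 h of RANKL among these 3 conditions. After 3 days of LPS, *Smad6* and *Smad7* had log2 fold changes of 2.13 and 1.32.

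NF-kappaB genes showed the reverse order. *Nfkb2* averaged 24.1 ± 3.90 FPKM after 4 h of RANKL and 173 ± 21.9 FPKM after 4 h of LPS, and *Tnf* averaged 28.9 ± 4.21 FPKM and 1970 ± 455 FPKM. *Cebpa* averaged 168 ± 16.4 FPKM after RANKL and 10.8 ± 3.11 after LPS, so that it lay above control (76.9 ± 5.03) after RANKL and below it after LPS. The interferon list had a median log2 fold change of -0.79 after 4 h of RANKL, 1.07 after 4 h of LPS, -1.61 after 3 days of RANKL and -0.94 after 3 days of LPS.

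The difference between RANKL and LPS at 4 h was tested in the fit over 5 groups. Across all genes, 61.2% differed at a limma adjusted p under 0.05, and the median gene was 0.53 higher after RANKL on the log2 scale, so differences of that size do not set a gene apart. Of the 12 largest rises, 9 were higher in RANKL than in LPS and 0 lower. The difference was 3.05 for *Smad6* (limma adjusted p = 1.31e-05), 1.64 for *Id2* (0.00114) and 3.34 for *Pald1* (3.7e-06), whereas *Ppp1r12b* (0.10, adjusted p = 0.676), *Pdgfb* (-0.48, 0.132) and *Spsb1* (-0.69, 0.0769) did not pass. Of the 12 largest falls, 7 were lower in RANKL than in LPS and 2 higher. *Gbp7* was lower by a log2 difference of -3.32 (limma adjusted p = 5.56e-06), and of the 26 interferon-stimulated genes 22 were lower and 0 higher. *Eps8* and *Rhobtb1*, which fell under both stimuli, were higher in RANKL, by 1.70 and 0.91. The genes were chosen from the RANKL libraries that enter these differences, so the counts describe the chosen genes.

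**Figure D5:**
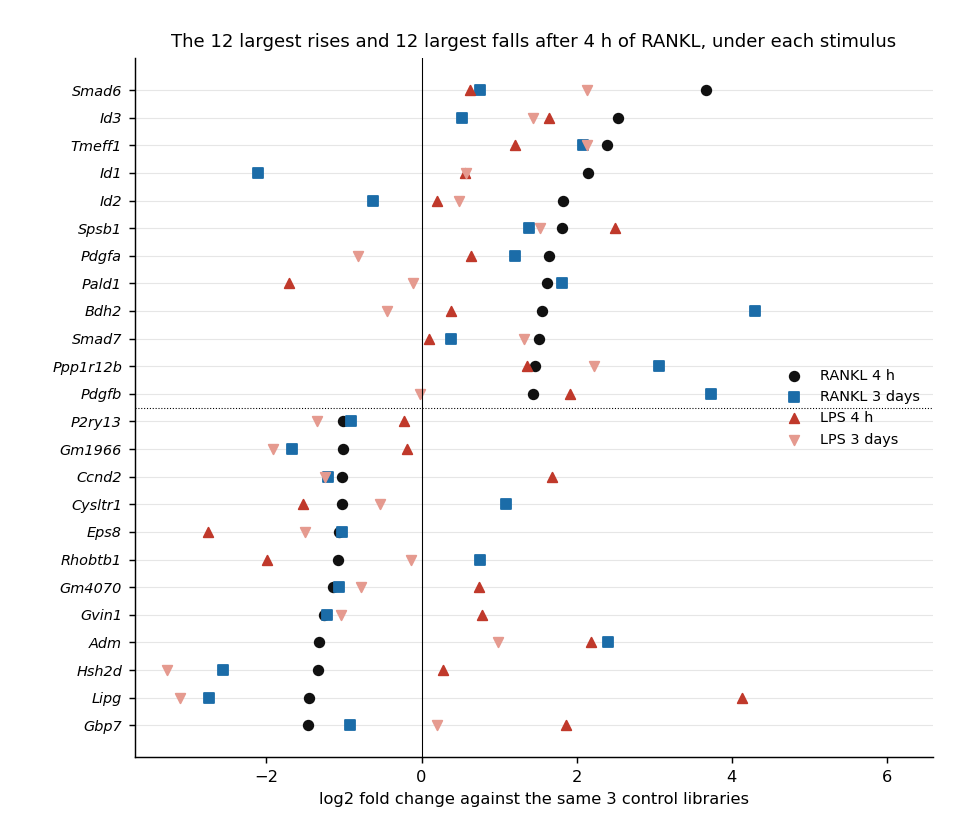
Log2 fold change against the same 3 control libraries (horizontal axis) after RANKL or LPS for 4 h or 3 days, for the 12 largest rises and the 12 largest falls at 4 h of RANKL. *Smad6*, *Id1*, *Id2* and *Smad7* lie farthest right at 4 h of RANKL, whereas *Adm* and *Gbp7* lie on opposite sides of 0 after 4 h of RANKL and 4 h of LPS.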

How the data were processed

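RNA was collected from BMDM cultures and sequenced with a SMARTER mRNA-seq kit, and 6 libraries of control and RANKL 4 h cells out of 15 were compared. The authors deposited 1 table of FPKM values per gene and library, which the study's methods attribute to StringTie and Ballgown. The submitters' processing notes list GRCm38.p4 and mm10, and the aligner and the use of strand are not given in the sources used here, so overlapping and antisense genes cannot be told apart. The table held 20089 complete entries in alphabetical order up to *Tti2*, of which 4453 were at 0 in every library, and later genes were not analysed here. A few genes are not reported here.

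Low FPKM values are whole multiples of the worth of 1 fragment, and fragments were recovered from these steps for 14485 of 14485 genes above 0 in at least 3 libraries (tolerance 0.01). Over these genes the recovered fragments summed to 18810977 to 20307875 per library in the 6 libraries, without the genes after *Tti2*. Values were tested as log2(FPKM + 0.1), a scale that understates the change of low genes, with limma 3.58.1 (R 4.3.3) with a trend and Benjamini-Hochberg adjustment over 11743 genes. This fit held all 5 groups so that they share 1 estimate of the spread (10 residual degrees of freedom). The study's fold thresholds were used, although the authors tested with edgeR, a count model that was not applied to FPKM.

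Replicate numbers came from the sample titles. Across 9486 genes the deviations from the group means correlated at 0.842, 0.707 and 0.743 between same-numbered control and RANKL libraries. The numbers were therefore taken to pair the libraries. Between differently numbered libraries the correlations were -0.097 to -0.676. Deviations within a group sum to 0, which pushes these below 0 once same-numbered ones are positive, so they are no separate support for pairing. The paired fit used the replicate number as a block in the 6 libraries (2 residual degrees of freedom). On simulated data the fit over 5 groups at an unadjusted p called 98 of 100 genes changed by a log2 of 1 and 46 of 11543 unchanged genes. At an adjusted p it called 70 and 1. The paired fit called 99 and 72 at an unadjusted p, and 80 and 0 at an adjusted p. The simulation gave same-numbered libraries a shared deviation and normal noise, and placed changes only in genes averaging 1 FPKM or more. It thus assumed the pairing and says nothing on detection in lower genes. With 3 libraries against 3 an exact permutation test cannot go below p = 0.1, so none was run on single genes.

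Genes were named by these rules: members of the gene lists that were changed or that are described by their role, the 12 largest rises and 12 largest falls among changed genes that averaged 1 FPKM or more and did not overlap between the groups, every gene with the folds and an adjusted p under 0.05, and the 10 lowest paired p-values in each direction. The lists, the rules and the choice of the comparison were made with earlier results of these data known. Alternatives covered the pseudocount, the filter, the scaling, the libraries in the fit, the block, the trend, voom and the omission of each library. Promoter motifs were search patterns chosen from general knowledge. Calculations outside R used numpy 2.4.6, scipy 1.17.1 and pandas 2.3.3 under Python 3.11.15, and plots were drawn with matplotlib 3.10.9.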

Additional observations from a re-analysis of the deposited data

Results flagged for a closer look

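The response to RANKL at 3 days differed from that at 4 h, by limma's test of the difference with an adjusted p under 0.05, for 16 of the 32 genes with the largest or best supported changes at 4 h, against 29.5% of all tested genes. The median gene was 0.15 higher at 3 days, and the genes were chosen from the 4 h libraries that enter the difference. Several genes that were high at 4 h were lower at 3 days. The log2 difference, 3 days minus 4 h, was -4.27 for *Id1*, -2.92 for *Smad6*, -2.45 for *Id2*, -2.02 for *Id3*, -1.37 for *Tgm2*, -1.12 for *Smad7*, -0.70 for *Skil* and -0.42 for *Sephs2*. *Hsh2d*, which fell at 4 h, was lower still at 3 days (-1.22).

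Other genes were higher at 3 days than at 4 h. This difference was 2.74 for *Bdh2*, 2.3 for *Pdgfb*, 1.61 for *Ppp1r12b* and 1.19 for *Nfkb2*, which had all risen at 4 h. It was 3.74 for *Adm*, 2.12 for *Cysltr1* and 1.84 for *Rhobtb1*, which had fallen at 4 h and had log2 fold changes of 2.41, 1.09 and 0.76 against control at 3 days.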

How the results depend on the processing

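None of the 96 named genes with a called, large or best supported change reversed its direction against control under any alternative. They were chosen for a clear change in these same data, so a steady direction was likely from the start. Genes named only for their role, many of them near control, were not part of this check. Against LPS 4 h, centring on the median gene turned *Cysltr1* to -0.07 and *Ppp1r12b* to -0.47, neither of which had passed the adjusted p. Of the 301 changed genes (142 higher, 159 lower; 14 with an adjusted p), a pseudocount of 1 left 189 (85 higher, 104 lower), an adjusted p in place of the unadjusted one 14, and dropping the fold gave 583. The number with an adjusted p was 0 in limma with only control and RANKL 4 h in the fit, where 299 genes were changed at an unadjusted p under 0.05, 3 without a trend and 24 with the replicate block over 5 groups. With the replicate block in the 6 libraries the numbers were 557 (242 higher, 315 lower) at an unadjusted p and 306 at an adjusted p, and voom with that block, added after seeing the data, gave 607 (249 and 358) and 394. With replicate number 1, 2 or 3 left out of that block, limma gave 653, 628 and 577 genes (279, 244 and 293 higher, 374, 384 and 284 lower) and 244, 241 and 306 with an adjusted p. Leaving out 1 library from the fit over 5 groups gave 206 to 440 changed genes, 117 to 199 higher, 67 to 258 lower, and 1 to 15 with an adjusted p. Without RANKL replicate 3, lower genes numbered 67, and without RANKL replicate 1 they numbered 258. The other filters, scalings and voom without a block gave 236 to 325 changed genes, and 101 of the 301 were called whichever library was left out. The cause of these differences was not tested. At about 20 fragments per library, as for *Ankrd37*, counting error limits the precision.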
